A study of Mus musculus with 8 samples.

Results

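The outer dense fibers and the fibrous sheath are the cytoskeletal structures that surround the axoneme of the mammalian sperm tail, and 10 genes that encode or bind their proteins are described here. They are Odf1, Odf2, Odf3 and Odf4 for the outer dense fibers, and Akap3, Akap4, Fsip1, Fsip2, Ropn1 and Cabyr for the fibrous sheath. They were chosen by gene symbol, each through the probe set with the highest mean over all arrays, and each had 1 probe set of its own among the 19411 genes on the array. All 10 had a mean over the 8 arrays above the low-signal limit of log2 5.69 and were among the 13587 genes tested. On both epididymis arrays Odf4, Akap3, Akap4, Fsip1, Fsip2 and Ropn1 lay below that limit, so they passed it through their sperm arrays.

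The samples came from C57/Bl6 mice, and each of 8 was hybridised to its own Affymetrix gene array. Mature sperm released from the cauda of the epididymis came from males on control diet (3 arrays), low protein diet (2 arrays) and caloric restriction (1 array). Epididymal tissue came from 1 male sample on control and 1 on low protein diet. Control and low protein males were kept on their diet to an age of 9 to 12 weeks and were mated to females on control diet. The labels give no age for the caloric restriction group, so age cannot be told apart from that diet. They do not say whether sperm were washed out of the epididymal tissue, or whether the arrays of a group came from separate animals. The p-values therefore cover the spread among these arrays alone, and that spread may be technical.

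The outer dense fibers run along the axonemal microtubules and stiffen the tail. The fibrous sheath encloses them in the principal piece, where it anchors protein kinase A and carries enzymes of glycolysis. Spermatids make these proteins late in spermiogenesis. Mature sperm are largely silent in transcription, so their RNA is regarded as carried over from the spermatid.

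The arrays were checked before the genes were compared. The mean log2 level of 10 late spermatid markers such as Prm1 and Tnp2 lay between 9.23 and 10.56 in sperm and at 6.33 and 6.41 in epididymis. Sperm arrays nevertheless carried signal of epididymal tissue. The mean of 16 of 24 epithelial markers that were tested was 8.15 to 8.34 in control sperm, 7.92 and 7.41 in the low protein replicates 1 and 2, and 7.70 under caloric restriction, against 9.29 and 9.22 in epididymis. The mean of 12 smooth muscle markers was 7.35 to 7.58 in control sperm, 7.07 and 6.73 under low protein, 7.18 under caloric restriction, and 9.99 and 10.02 in epididymis. The mean of 10 leukocyte markers overlapped, with 6.69 to 7.29 in control sperm, 7.18 and 7.27 under low protein and 7.21 under caloric restriction. Actb and Myh11, by which sperm preparations with tissue had been rejected, were at 11.43 to 11.61 and 7.94 to 8.13 in control sperm, and at 11.04 and 10.49 and at 7.51 and 7.09 under low protein. Under caloric restriction they were at 11.28 and 7.85. Low protein replicate 2 correlated least well with the rest of the sperm arrays over the tested genes (r = 0.71 to 0.86, where pairs without it had 0.85 to 0.98). Its removal is given beside the diet comparisons of the 10 genes that it touches.

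The promoters of Akap3 and Akap4 are shown because these fibrous sheath genes share a run of bases there, and that of Fsip2 because it had the largest change of the 10 genes in any diet comparison. Akap3 and Akap4 encode scaffold proteins that bind the regulatory subunits of protein kinase A, and Akap4 is the most abundant protein of the sheath. The RefSeq promoter table of build GRCm38.p6 held 7 of the 10 genes. The 250 bases before each annotated start are printed 5′ to 3′ on the strand of the gene. Capitals mark the shared run in Akap3 and Akap4, and in Fsip2 the letters CGTCA, the reverse complement of TGACG. These letters are part of the cAMP response element, to which the spermatid activator Crem binds.
Akap3, chr6:126852848-126853097, plus strand: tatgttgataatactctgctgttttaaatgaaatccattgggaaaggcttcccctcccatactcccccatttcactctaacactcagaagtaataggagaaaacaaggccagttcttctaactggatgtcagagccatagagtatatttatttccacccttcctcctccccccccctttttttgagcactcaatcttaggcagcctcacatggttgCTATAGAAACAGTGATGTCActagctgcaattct
Akap4, chrX:7067265-7067514, plus strand: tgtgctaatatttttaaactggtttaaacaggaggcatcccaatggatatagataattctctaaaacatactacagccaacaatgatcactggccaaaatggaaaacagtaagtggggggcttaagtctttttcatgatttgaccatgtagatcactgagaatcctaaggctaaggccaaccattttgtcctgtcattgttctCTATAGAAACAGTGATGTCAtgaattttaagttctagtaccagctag
Fsip2, chr2:82943384-82943633, plus strand: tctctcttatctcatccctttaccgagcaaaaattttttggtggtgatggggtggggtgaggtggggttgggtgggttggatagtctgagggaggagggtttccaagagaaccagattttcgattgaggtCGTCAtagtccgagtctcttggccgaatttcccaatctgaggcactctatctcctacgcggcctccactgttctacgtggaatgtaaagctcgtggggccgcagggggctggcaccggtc

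The run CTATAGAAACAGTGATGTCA, 20 bases long, begins 34 bases before the start of Akap3 and 47 bases before the first listed start of Akap4. On either strand it occurred in 2 of the 32851 promoters of the table, those of these genes, and no other pair of the 7 genes shared more than 11 bases on either strand. This search was added after the sequences had been seen. The last 8 letters, TGATGTCA, occurred on either strand in 2.93% of all promoters. The response element TGACGTCA was in none of the 7 genes and in 1.55% of all promoters. TGACG was in the promoter of Fsip2 and in those of starts 1 and 2 of the 4 listed for Odf2 (17.8% of all). GTTGCC, part of the X-box of the Rfx factors, was in that of Odf3 (10.4% of all), and TATAAA in none (12.4% of all). Each was searched on both strands, and the shares count promoters and not genes. A match of letters is a description and not a binding site, and no match says only that these letters are not in this window.

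All 10 genes were higher in sperm than in epididymal tissue. The question here was which RNAs belong to sperm and which to the tissue around them. The fit used tissue and diet as additive terms. Caloric restriction had no epididymis array, so the tissue effect rests on 5 sperm and 2 epididymis arrays. In bulk samples, fewer cells of a type and less RNA per cell cannot be told apart.

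Akap4 had the largest difference of the 10. Its log2 levels were 8.59, 8.43 and 8.60 in control sperm, 9.24 and 9.78 in low protein sperm, 9.68 under caloric restriction, and 5.34 and 5.38 in control and low protein epididymis. The lowest sperm array stood 3.05 above the higher epididymis array. The fitted difference was 3.63 ± 0.23 (SE; adjusted p = 2.59e-05), a ratio of 12.4. Its partner Akap3 was less far apart, with 6.58, 6.44 and 6.64 in control, 7.07 and 7.38 under low protein and 8.05 under caloric restriction in sperm, and 5.30 and 5.19 in epididymis. That difference was 1.62 ± 0.20 (SE; adjusted p = 0.000375).

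Of the outer dense fiber genes, Odf1 and Odf2 differed most. Odf1 encodes a main, cysteine-rich protein of the fibers. Its levels were 13.24, 13.00 and 12.92 in control, 13.36 and 13.57 under low protein and 13.30 under caloric restriction in sperm, and 10.46 and 10.44 in epididymis. The epididymis arrays were thus bright for Odf1 in themselves, but lay 2.46 below the lowest sperm array, and the fitted difference was 2.80 ± 0.17 (SE; adjusted p = 2.04e-05). Odf2, a scaffold protein of the fibers that also has a form at the centrosome of other cells, had 10.46, 10.29 and 10.18 in control, 10.90 and 11.33 under low protein and 11.26 under caloric restriction in sperm, and 7.48 and 7.41 in epididymis. Its fitted difference was 3.24 ± 0.22 (SE; adjusted p = 3.22e-05).

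Odf4 and Odf3 lay closer to the tissue than Odf1 and Odf2 did. Odf4, a protein of the tail with membrane-spanning stretches, had 7.02, 6.76 and 6.75 in control, 7.84 and 7.97 under low protein and 8.11 under caloric restriction in sperm, against 5.12 and 5.31 in epididymis. The difference was 2.13 ± 0.21 (SE; adjusted p = 0.000127). Odf3, also called Shippo1, had 7.32, 6.84 and 7.00 in control, 7.14 and 7.72 under low protein and 8.16 under caloric restriction in sperm, against 6.23 and 6.17 in epididymis. Odf3 was the smallest of the 10 differences, 1.03 ± 0.21 (SE; adjusted p = 0.00441). It was the 1 gene whose call was lost when an array was left out, with 0.82 (adjusted p = 0.0824) without the low protein epididymis array.

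The genes of the sheath proteins that bind the Akap scaffolds had differences between those of Odf4 and Odf3. Fsip1, found through its binding to Akap4, had 6.83, 6.69 and 6.39 in control, 7.28 and 7.78 under low protein and 7.99 under caloric restriction in sperm, and 5.13 and 4.74 in epididymis. Fsip2, a very large sheath protein, had 5.74, 5.63 and 6.26 in control, 7.01 and 6.73 under low protein and 8.78 under caloric restriction in sperm, and 4.30 and 4.37 in epididymis. Both had every sperm array above both epididymis arrays, and they differed by 2.11 ± 0.29 and 2.01 ± 0.25 (SE; adjusted p = 0.000601 and 0.000401). Ropn1, or ropporin, has a docking domain like that of the regulatory subunit of protein kinase A. It had 6.35, 6.32 and 6.46 in control, 6.67 and 7.33 under low protein and 7.47 under caloric restriction in sperm, and 4.95 and 4.97 in epididymis. Cabyr, a calcium-binding protein that is phosphorylated on tyrosine during capacitation, had 8.00, 7.83 and 7.85 in control, 8.57 and 9.20 under low protein and 9.19 under caloric restriction in sperm, and 6.59 and 6.65 in epididymis. Ropn1 and Cabyr differed by 1.71 ± 0.21 and 1.74 ± 0.24 (SE; adjusted p = 0.000401 and 0.000666), again with no overlap between the tissues.

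**Figure D1:**
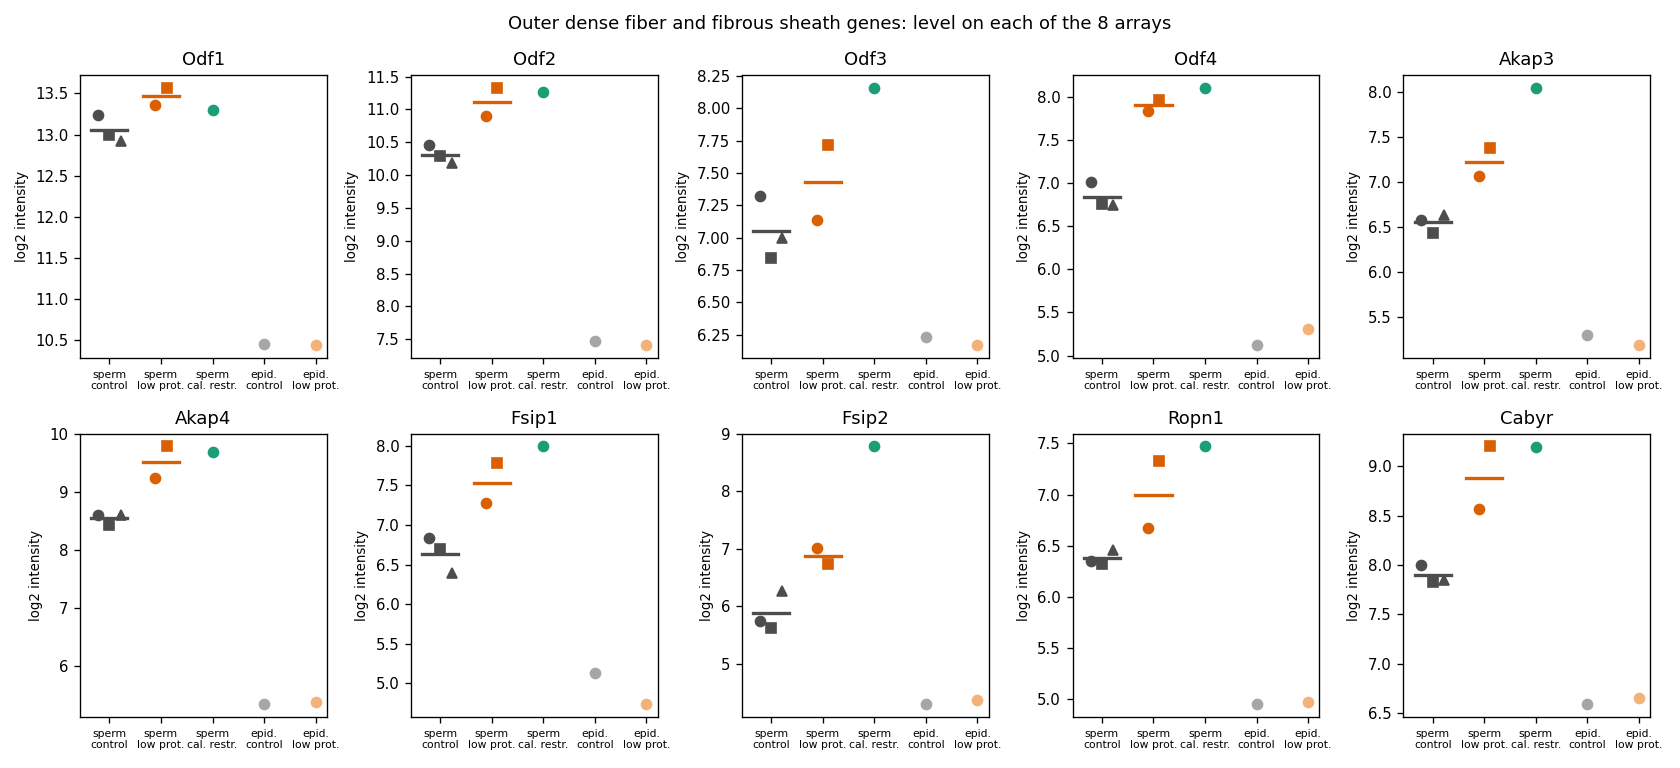
Each panel plots the log2 intensity of 1 gene (vertical axis, own scale, not from 0) on the 8 arrays, grouped by tissue and diet; symbols mark replicates 1 (circle), 2 (square) and 3 (triangle), and a bar marks the mean where a group has more than 1 array. Every gene is lowest on the 2 epididymis arrays, and in every gene but Odf3 the low protein arrays lie above all 3 control sperm arrays.

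By limma 10 of 10 genes rose in sperm, against a background of 18.4% of all tested genes called higher. Without the low-signal limit, which Odf4, Akap3, Akap4, Fsip1, Fsip2 and Ropn1 passed through their sperm arrays, it was 10 of 10 against 15.2%. In the main fit the median difference of the 10 genes was 2.06, with a range from 1.03 to 3.63, while the median over all 13587 genes was -0.08. In all 10 genes no sperm array overlapped an epididymis array, a pattern found with sperm above tissue in 24.8% of tested genes. On the linear scale, the control epididymis signal was 10.9% of the mean of control sperm for Akap4, 14.1% for Odf2 and 16.5% for Odf1. It was 30.3% to 41.9% for Odf4, Akap3, Fsip1, Fsip2, Ropn1 and Cabyr, and 56.5% for Odf3. An array probe set has a background signal of its own, so such a share is no measure of how much of the transcript the tissue holds.

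Other genes tied to the same structures mostly went the same way, and not all of these encode parts of them. Of 11 further genes tied to the outer dense fibers 9 rose in sperm and 0 fell, among them Tcp11 (4.02 ± 0.18), the antizyme gene Oaz3 (3.70 ± 0.28) and Ccdc38 (2.62 ± 0.25). Of 15 further fibrous sheath and protein kinase A genes 11 rose and 1 fell, Prkar1a (-1.64 ± 0.18), a regulatory subunit found in most cell types. The largest rises were those of the sheath-bound glycolytic enzyme Gapdhs (4.06 ± 0.20), the spermatid phosphoglycerate kinase Pgk2 (3.81 ± 0.28) and the central apparatus gene Spag16 (3.37 ± 0.26). Of 9 genes of the annulus and the mitochondrial sheath 6 rose, led by Smcp (2.90 ± 0.19), Tssk2 (2.59 ± 0.24) and Armc12 (2.19 ± 0.25), and 1 fell, the mitochondrial channel gene Vdac3 (-0.85 ± 0.17). Prkar1a and Vdac3 are named here after their values were seen. The median differences of these lists were 1.66, 1.61 and 1.64.

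In low protein sperm the 10 genes had higher values than in control sperm, but 0 of them passed the test. This comparison bears on whether the diet of the male changes the RNA in his sperm. Odf4 had the largest difference, 1.06 ± 0.17 (SE; 2 low protein and 3 control arrays; adjusted p = 0.0847), a ratio of 2.09. Its low protein arrays stood 0.82 above the highest control array, the widest gap of the 10. Fsip2 differed by 1.00 ± 0.22 (adjusted p = 0.0865), Cabyr by 0.99 ± 0.21 and Akap4 by 0.97 ± 0.20 (adjusted p = 0.0847 for each of the last 2). Fsip1 differed by 0.90 ± 0.22, Odf2 by 0.81 ± 0.19 and Akap3 by 0.67 ± 0.17, with adjusted p = 0.0910, 0.0882 and 0.102. The smallest differences were those of Ropn1 (0.62 ± 0.22), Odf1 (0.41 ± 0.18) and Odf3 (0.37 ± 0.23), with adjusted p = 0.158, 0.198 and 0.337.

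Limma with eBayes called 0 of 10 genes against 0.0% of all genes, and eBayes with a trend and robust eBayes also called 0 of 10. At an unadjusted p under 0.05, 9 of the 10 genes were higher, where 11.9% of all tested genes were. Both low protein arrays lay above all 3 controls in 9 of 10 genes, as in 18.8% of all genes. Odf3 was the exception, since replicate 1 (7.14) was below control replicate 1 (7.32). The median difference was 0.85, against -0.06 over all genes. Without low protein replicate 2 the differences ran from 0.09 in Odf3 to 1.14 in Fsip2, with a median of 0.62. Without replicate 1 they ran from 0.51 in Odf1 to 1.30 in Cabyr, with a median of 0.99. In both fits the spread came from the control arrays alone. The epithelial and smooth muscle marker means were lower on the low protein arrays, as given above. With the mean of tissue markers per array as a covariate, the median difference was 0.16 and that of Fsip2 1.44 (adjusted p = 0.122). This mean was 8.02 to 8.09 in control and 7.72 and 7.31 in low protein sperm, with no overlap, so the tissue signal and the diet cannot be told apart.

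In the epididymis each diet had 1 array and no test was possible. There low protein minus control ran from -0.39 in Fsip1 to 0.19 in Odf4, and the SD of this difference over all 13587 genes was 0.19. The difference between the diet effects in sperm and epididymis was then tested. With 1 epididymis array per diet and 1 caloric restriction array, its spread came from the 5 control and low protein sperm arrays alone, so the error of the epididymis difference was assumed and not measured. The difference was above 0 in all 10 genes, from 0.42 ± 0.32 in Odf1 to 1.28 ± 0.40 in Fsip1, but 0 of 10 genes passed against 0.0% of all genes (smallest adjusted p = 0.875). Before adjustment 6 of 10 had p under 0.05, where 4.06% of all genes were higher. With either low protein sperm array left out, the spread came from the 3 control arrays. The median difference of the 10 genes was then 0.94 without replicate 1 and 0.64 without replicate 2.

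On the caloric restriction array Fsip2 rose more than any of the 13587 genes tested. It stood at 8.78, which was 2.52 above the highest control array and 1.77 above the higher low protein array. Its control levels of 5.74, 5.63 and 6.26 were near the low-signal limit of 5.69. The difference from control was 2.90 ± 0.28 (SE; 1 caloric restriction and 3 control arrays; adjusted p = 0.00242), a ratio of 7.48. With 1 array the spread comes from the control and low protein arrays, and the values describe that array. Akap3 rose by 1.50 ± 0.22 (adjusted p = 0.00709) and stood 1.41 above the highest control and 0.67 above the higher low protein array.

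A further 4 genes rose by about the same amount. Fsip1 rose by 1.35 ± 0.27, Cabyr by 1.30 ± 0.27, Odf4 by 1.26 ± 0.21 and Akap4 by 1.14 ± 0.25, with adjusted p = 0.0263, 0.0298, 0.0124 and 0.0401. The others did not pass: Odf3 differed by 1.11 ± 0.29, Ropn1 by 1.09 ± 0.27 and Odf2 by 0.95 ± 0.24 (adjusted p = 0.0743, 0.0647 and 0.0668). Odf1 differed by 0.24 ± 0.22 (adjusted p = 0.591), with a 95% interval from -0.27 to 0.76. Its caloric restriction value of 13.30 was only 0.06 above control replicate 1. Odf1 was the brightest of these probe sets, where the highest value of any probe set was 14.5, and whether its signal was near its ceiling was not tested.

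By limma 6 of 10 genes rose against a background of 5.53% of all genes called higher. In all 10 genes the array lay above all 3 controls, as in 27.3% of all genes, and in 6 of 10 it was the highest of the 6 sperm arrays, as in 17.6%. In Odf1, Odf2, Akap4 and Cabyr low protein replicate 2 was higher. The median difference was 1.20, against -0.11 over all genes. The calls depended on the controls: without control replicate 1 they were Odf4, Akap3 and Fsip2 (3.57% of all genes), and without replicate 2 or 3 they were Akap3 and Fsip2 (2.18% and 2.38%). With the tissue marker covariate, which was 7.68 on this array, Odf4 (1.09), Akap3 (1.21) and Fsip2 (3.21) passed, with adjusted p = 0.0127, 0.00655 and 4.60e-05. These 3 of 10 compare with 10.2% of all genes called higher. Under that covariate Akap4 (0.62), Fsip1 (0.83) and Cabyr (0.68) did not pass. The covariate was 8.02 to 8.09 in control sperm, with no overlap, so here too the tissue signal and the diet cannot be told apart. Leaving out either low protein array left the differences unchanged, with a median of 1.20. The spread then came from the 3 control arrays alone, so both fits were the same test and only their differences are given.

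**Figure D2:**
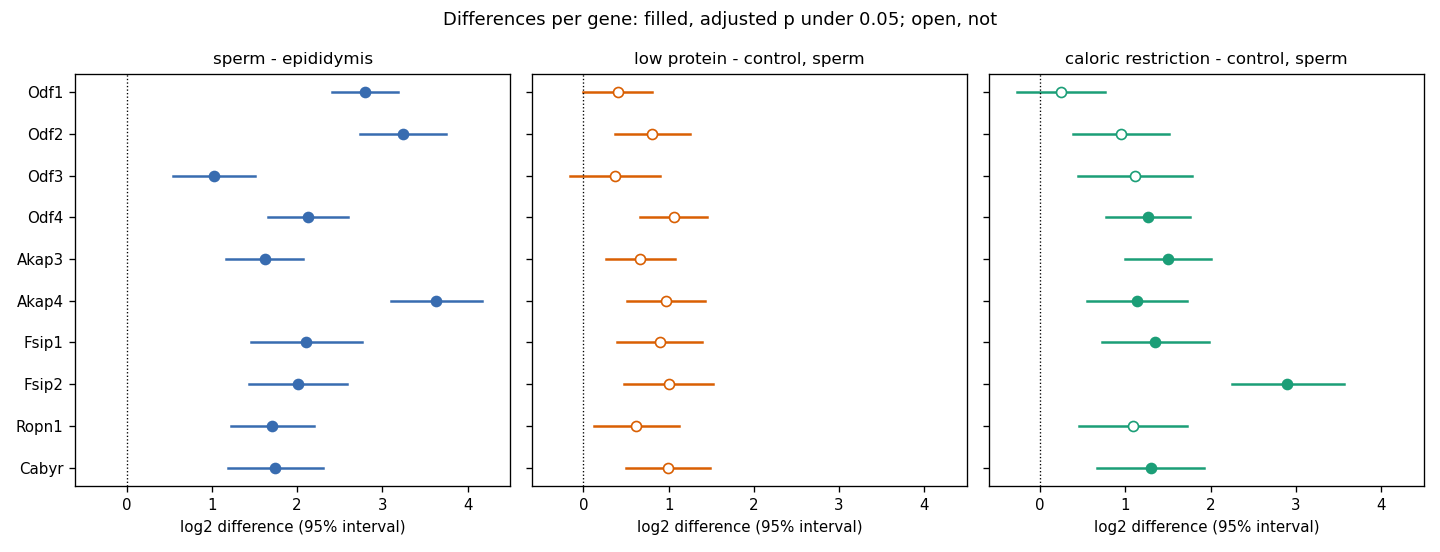
The log2 difference of each gene (horizontal axis, point) with its 95% interval from the limma fit (line) for sperm against epididymis, low protein against control sperm and caloric restriction against control sperm; filled points have an adjusted p under 0.05. All points lie above 0, no low protein point is filled, and Fsip2 at 2.90 stands apart in the caloric restriction panel.

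Several neighbours in the tail moved with them on the caloric restriction array. Of the 11 further outer dense fiber genes 7 rose and 0 fell. Odf3l1, a relative of Odf3, rose by 1.76 ± 0.20, the nuclear envelope protein gene Spag4 by 1.60 ± 0.22 and Mns1, needed for flagellar assembly, by 1.46 ± 0.22. Of the 15 further sheath genes 5 rose and 0 fell, and the largest were the lactate dehydrogenase Ldhc (1.74 ± 0.21), the ropporin relative Ropn1l (1.74 ± 0.21) and Spa17, which has the same docking domain (1.58 ± 0.23). Of 9 annulus and mitochondrial sheath genes 4 rose and 0 fell. Among these Spata19 rose by 1.86 ± 0.29, and the annulus septin genes Septin12 and Septin4 rose by 1.33 ± 0.23 and 1.29 ± 0.26. The fourth of these was Armc12 (1.24 ± 0.26), named after its value was seen. The list medians were 1.18, 0.82 and 0.98. Under low protein 0 genes of the 3 lists passed, with medians of 0.59, 0.72 and 0.72.

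With both restricted diets joined, 5 of 10 genes rose against control, where 2.72% of all genes were called higher. Odf4 rose by 1.13 ± 0.16, Cabyr by 1.09 ± 0.20, Fsip1 by 1.05 ± 0.21, Akap4 by 1.02 ± 0.18 and Odf2 by 0.86 ± 0.17 (SE; 3 restricted and 3 control arrays), with adjusted p between 0.0411 and 0.0440. Fsip2 differed most, by 1.63 ± 0.46, but did not pass (adjusted p = 0.0900), since its values of 7.01, 6.73 and 8.78 were far apart. Akap3 differed by 0.95 ± 0.24, Ropn1 by 0.77 ± 0.22, Odf3 by 0.62 ± 0.26 and Odf1 by 0.35 ± 0.16, with adjusted p from 0.0684 to 0.201. All 3 restricted arrays lay above all 3 controls in 9 of 10 genes, against 15.0% of all genes. Leaving out any control array or the caloric restriction array, or adding the marker covariate, left 0 of 10 past the threshold, as it left 0.0% of all genes called higher. Leaving out low protein replicate 1 gave 8 (7.05% of all genes) and replicate 2 gave 7 (4.61%). Of the further lists, 3 of 11 outer dense fiber genes rose, namely Ccdc38 (1.15 ± 0.18), Mns1 (1.08 ± 0.20) and Spata6 (1.00 ± 0.20). Of the 15 genes tied to the sheath 5 rose, among them Spa17 (1.12 ± 0.22) and the central apparatus gene Spag16 (1.12 ± 0.24). Of the 9 annulus and mitochondrial sheath genes 3 rose, namely Spata19 (1.27 ± 0.28), Tssk2 (1.01 ± 0.20) and Septin12 (0.99 ± 0.20).

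Between low protein and caloric restriction sperm 0 of 10 genes passed, as 0.0% of all genes did. The arrays are those of the comparisons above. For Fsip2 low protein minus caloric restriction was -1.91 ± 0.30 (SE; 2 against 1 array; adjusted p = 0.0676). For Akap3 it was -0.82 ± 0.23 (adjusted p = 0.234) and for Odf3 -0.73 ± 0.31 (adjusted p = 0.492). These 3 genes had an unadjusted p under 0.05, where 7.37% of all genes were lower. Only these intervals lay below 0: that of Fsip2 ran from -2.60 to -1.21, that of Akap3 from -1.36 to -0.29 and that of Odf3 from -1.44 to -0.02. For Akap4 the interval was -0.79 to 0.45, for Cabyr -0.97 to 0.35 and for Odf2 -0.73 to 0.45. With either low protein array left out, 1 array stood against 1 and the spread came from the 3 control arrays. The median difference of the 10 genes was then -0.66 without replicate 2 and -0.14 without replicate 1.

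The genes were then set against other spermatid transcripts on the same arrays. The mean of the 10 late spermatid markers was itself higher on the restricted arrays, by 0.61 and 1.00 on the low protein arrays and by 1.04 on the caloric restriction array relative to the control mean. The control arrays varied from -0.29 to 0.21 around that mean. The spermatid genes did not move evenly: Izumo1, which the sperm needs to fuse with the egg, Tekt2 and Fabp9 rose by 2.40 ± 0.21, 2.14 ± 0.22 and 1.71 ± 0.23 under caloric restriction, and the other 7 did not pass. They are named after their values were seen. This mean was then subtracted on each array. Under caloric restriction the remaining difference was within the range of the controls in 4 genes, at 0.09 for Akap4, -0.09 for Odf2, 0.06 for Odf3 and 0.04 for Ropn1. It was above all 3 controls in Fsip2, Akap3, Fsip1, Odf4 and Cabyr. The share of all tested genes with this pattern was not computed, and before the subtraction it was 27.3%. Of these 5 genes Fsip2 lay highest, at 1.86, with controls from -0.35 to 0.68. Akap3 was at 0.45 (controls -0.19 to 0.38) and Fsip1 at 0.31 (controls -0.02 to 0.04). Odf4 at 0.22 and Cabyr at 0.25 were barely above their highest controls, 0.20 and 0.25 after rounding. Odf1 was the 1 gene below its controls, at -0.80, where they ran from -0.13 to 0.16. Under low protein Odf1 was also below its controls, at -0.31 and -0.48, as was Odf3, at -0.53 and -0.34 (controls -0.29 to 0.24), while Fsip2 was at 0.53 and -0.14, within the range of its controls. These subtracted values are a description and were not tested.

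**Figure D3:**
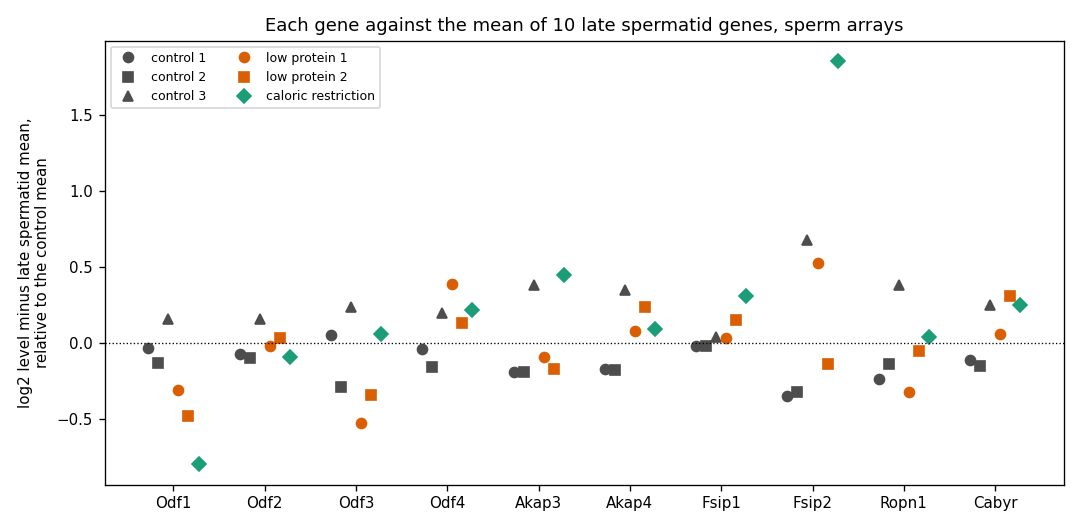
For each gene the log2 level minus the mean of 10 late spermatid genes on the same array, relative to the mean of the 3 control arrays (vertical axis, 0 is the control mean), on the 6 sperm arrays; grey marks control, orange low protein and green caloric restriction. Fsip2 under caloric restriction (1.86) lies far above its controls and Odf1 (-0.80) below its own.

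By group means the order was alike in 9 of 10 genes: epididymis lowest, then control sperm, then low protein, then the 1 caloric restriction array. In Odf1 the low protein mean (13.46) was above caloric restriction (13.30). In Odf2, Akap4 and Cabyr low protein replicate 2 was itself above the caloric restriction array. The share of all tested genes with this order was not computed. The control and low protein SDs over 3 and 2 arrays were 0.34 and 0.20 for Fsip2, 0.09 and 0.39 for Akap4, 0.15 and 0.09 for Odf4 and 0.08 and 0.47 for Ropn1. Between the low protein and caloric restriction levels, neighbours in that order, none of the 10 genes passed the main test. Some passed with other processing, as given at the end.

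Likeness of pattern was measured as the root mean square difference over the 8 arrays after each gene's mean was subtracted. Within the family Akap3 and Ropn1 were among the closest, as were Ropn1 and Cabyr (0.16 for each pair), and Odf2 was close to Akap4 (0.21). Odf3 and Akap4 were farthest apart (1.12). Among all other tested genes, Odf1 was closest to Smcp (0.09), a protein of the mitochondrial sheath, Odf2 to Lpin1 (0.05), Odf3 to Rfc2 (0.08) and Odf4 to CK137956 (0.10). Akap3 was closest to Cox6b2 (0.08), a germ cell form of a respiratory subunit, Akap4 to 1700029H14Rik (0.07), Fsip1 to Zdhhc19 (0.07), Ropn1 to Fam178b (0.12) and Cabyr to Slc22a16 (0.08). Fsip2 had the least close neighbours, Enkur (0.19), which tethers signalling proteins to sperm calcium channels, and Spaca7 (0.21), a protein of the acrosome.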

How the data were processed

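RNA was measured on 8 arrays. The authors deposited 1 log2 intensity for every probe set on each array, and the submitters' processing notes name RMA. The log2 scale was read from the values, and no genome build is given in the sources used here. Array medians ran from 6.08 to 6.17. Of 33660 probe sets, 21222 carried 1 gene, 1541 several and 10897 were unnamed here, by the platform annotation. Symbols were updated by gene identifier for 21137 through RefSeq names of GRCm38.p6. The lowest 30% of 19411 genes by mean (log2 5.69 and below) were left out.

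Tests used limma 3.58.1 (lmFit, eBayes, two-sided) in R 4.3.3, with Benjamini-Hochberg adjustment over 13587 genes and a threshold of 0.05. Errors are moderated standard errors. Each fit was tested on simulated data. The members, lists, comparisons and the rule for named genes were chosen with earlier results of these data known. The rule named all members, up to 3 genes per further list with the largest difference, Actb, Myh11 and the closest genes by pattern. Genes of the lists without a named probe set were not analysed here. Alternatives were median centring, quantile normalization, cyclic loess, other filters, probe sets averaged per gene, a trend or a robust prior in eBayes, a threshold of 0.10, a mean of epithelial, muscle and matrix markers as covariate, fewer groups and each array left out. The number of arrays limits the precision.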

Additional observations from a re-analysis of the deposited data

How the results depend on the processing

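All 10 genes stayed higher in sperm than in epididymis under every alternative, and 8 to 10 passed (8 of 8 where the 50% filter removed Fsip2 and Ropn1, 9 to 10 with an array left out). Cyclic loess moved the median of all genes from -0.08 to 0.06 there, and the share of all calls that were higher from 37.9% to 52.5%.

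Counts of the 10 genes past the threshold moved as follows, with the share of all genes called the same way in parentheses. At 0.10 there were 6 for low protein (4.11%), 8 for the joined diets (6.70%) and 1 between the diets (0.942%). Quantile normalization gave 3 for caloric restriction (3.68%), eBayes with a trend 2 for the joined diets (1.21%), and cyclic loess 1 between the diets (0.832%). The marker covariate gave 3 for caloric restriction (10.2%), 0 for the joined diets (0.0%) and 4 between the diets (4.86%). With an array left out the count ran from 0 (0.0%) to 8 (7.05%) for the joined diets. With a control array left out it stayed at 0 for low protein (0.0%). In all diet comparisons but the joined diets, leaving out a low protein array left 1 low protein array and only the spread of the 3 control arrays. For these fits the differences are given above and the counts are not. For caloric restriction, median centring and the threshold of 0.10 raised the count, and cyclic loess and eBayes with a trend lowered it. In the joined diets Odf2 lost its call after cyclic loess, with a difference of 1.39 (adjusted p = 0.0613) against 0.86.

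Signs turned with the covariate for Odf3 (-0.50) and Ropn1 (-0.23) under low protein, and for Odf1 under caloric restriction (-0.02) and the joined diets (-0.01). Between the diets, none of it past the threshold, they turned after cyclic loess for Odf2 (0.28) and Akap4 (0.01), after quantile normalization for Odf4 (0.03) and Akap4 (0.01), and with an array left out for Odf2 (-0.36 to 0.07), Akap4 (-0.44 to 0.11) and Cabyr (-0.62 to 0.01), where the higher value was without low protein replicate 1. The cause was not tested. No paired analysis was possible because the labels give no replicate numbers that groups share.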
